A study of Mus musculus with 3 samples.

Results

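The rows described here are 18314 NONCODE transcripts that lie outside the Ensembl genes of a mouse expression table. NONCODE is a catalogue of noncoding RNA loci. A row was taken when its identifier came from NONCODE and its position overlapped no Ensembl row of the table on either strand. Such rows make up 31.8% of the 57561 rows of the table and 49.6% of its 36912 NONCODE rows, and they are called intergenic rows below. The name is relative to the table, whose Ensembl rows leave out most long noncoding genes. In GENCODE M21, a fuller annotation, 13579 of the intergenic rows (74.1%) overlapped no gene on either strand. Of the rest, 3269 were counted over a long noncoding gene, 723 a pseudogene, 632 a protein-coding gene, 98 a small RNA gene and 12 a ribosomal RNA gene. Each row was counted once. A row over several kinds of gene went to the first of ribosomal RNA, protein-coding, pseudogene, long noncoding and small RNA. Malat1 and the host transcripts of several microRNAs are therefore among the intergenic rows.

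The RNA came from cultured MDSCs, myeloid-derived suppressor cells, which are immature cells of the granulocyte and monocyte lines able to dampen T cell responses. Marrow of the mouse femur was grown for 4 days with the cytokines GM-CSF and IL-6. The libraries came from mice lacking the long noncoding RNA lnc57Rik (lnc57Rik KO), mice lacking the long noncoding RNA lncGM1082 (lncGM1082 KO) and wild type mice (WT), all labelled C57BL/6, with 1 library per genotype. The design text could also mean several samples of each genotype, and the sources used here do not state whether a column of the table pools them. The culture protocol speaks of the C57BL/6 and the lnc57Rik KO animals alone, so the source of the lncGM1082 KO marrow rests on its genotype label. The labels give neither the age of the mice, the way the deletions were made nor whether animals were pooled. No replicate check, test or p-value is possible on single libraries, and every difference below is a difference between libraries.

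Long noncoding transcripts can arise from their own promoters, from the divergent side of a gene's promoter, from enhancers, or from transcription that runs past the end of a gene. Some are processed into microRNAs, which pair with target messenger RNAs through a seed at their 5′ end. In myeloid cells several noncoding loci of this kind are well known, among them the hosts of miR-155, miR-223 and miR-146a.

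The unit is FPKM, in which the fragments of a row are divided by its length and by the library total. The totals behind them were fitted here, as the values that brought Ensembl genes with 1 transcript closest to whole fragments. They came to 17593428 fragments in the lnc57Rik KO, 18280419 in the lncGM1082 KO and 18485055 in the WT library. With these totals 1 fragment in 1000 bases was worth 0.0568, 0.0547 and 0.0541 FPKM in that order. All 13 rows of MDSC marker genes were above 0 in every library. Of these, 11 reached 1 FPKM in the lnc57Rik KO, 11 in the lncGM1082 KO and 12 in the WT library. S100a9, an alarmin subunit, had 4509, 2833 and 4521 FPKM, and the granulocytic marker Ly6g 21.1, 33.9 and 73.4 FPKM in the same order. By the fold rule given below, 4 of 11 marker rows were lower and 0 higher in the lnc57Rik KO against WT, where 1.4% and 3.79% of Ensembl rows were. In the lncGM1082 KO 1 was lower and 0 higher, where 1.05% and 0.88% were. Whether the lncGM1082 deletion left a trace could not be read from the table. RefSeq lists Gm1082 as another name of Arhgap33os, and the intergenic row at that position on chromosome 7, NONMMUG078287.1, held 0 fragments in the lnc57Rik KO, 3 in the lncGM1082 KO and 1 in the WT library. At 3 fragments or fewer the row cannot check the label, and no row could be tied to lnc57Rik by name.

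Among the intergenic rows, 38 held 63 of the 1005 microRNA hairpins of the RefSeq table on their own strand. Of these, 15 rows with 27 hairpins reached a mean of 1 FPKM over the libraries. This set was chosen after the values were seen. The mature sequences below come from RefSeq (GRCm38.p6). They are shown because they are what the best-known of these rows encode, with the seed (bases 2 to 8) in capitals.
mmu-miR-155-5p: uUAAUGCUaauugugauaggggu
mmu-miR-142a-3p: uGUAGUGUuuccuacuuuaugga
mmu-miR-146a-5p: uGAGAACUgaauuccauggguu
mmu-miR-223-3p: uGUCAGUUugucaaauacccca
mmu-miR-221-3p: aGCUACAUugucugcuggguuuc
mmu-miR-222-3p: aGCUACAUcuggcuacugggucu
mmu-miR-17-5p: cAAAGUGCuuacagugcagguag
mmu-miR-20a-5p: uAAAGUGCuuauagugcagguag
mmu-miR-23a-3p: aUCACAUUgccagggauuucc
mmu-miR-27a-3p: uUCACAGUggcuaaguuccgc
mmu-miR-24-3p: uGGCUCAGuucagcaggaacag
mmu-let-7a-5p: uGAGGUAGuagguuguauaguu
mmu-let-7d-5p: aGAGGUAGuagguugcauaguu
mmu-miR-192-5p: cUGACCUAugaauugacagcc
mmu-miR-194-5p: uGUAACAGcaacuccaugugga
The pairs miR-221 and miR-222, miR-17 and miR-20a, and let-7a and let-7d each share a seed and come from 1 row each. The FPKM of a host row measures the longer host transcript and not the mature microRNA.

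The miR-142 host (NONMMUG007185.3, chromosome 11), a locus active across blood cells, stood at 89.8 FPKM in the lnc57Rik KO, 72.3 in the lncGM1082 KO and 92.9 in the WT library. The miR-155 host (NONMMUG017032.2, chromosome 16, 84703167 to 84715245, plus strand), known for its induction in activated myeloid and lymphoid cells, had 54.2, 45.2 and 31.0 FPKM in the same order. It was thus above WT in both knockout libraries, by 0.79 and 0.53 on the log2 scale, short of the fold of 1 used below. Inside its span, NONMMUG062770.1 on the opposite strand had 92.3, 77.1 and 54.5 FPKM. No source used here says whether counting kept the strands apart, so reads of these overlapping rows cannot be told apart.

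The miR-146a host (NONMMUG005850.2), part of a feedback loop on NF-kappa B signalling, had 12.9 FPKM in the lnc57Rik KO, 18.3 in the lncGM1082 KO and 12.96 in the WT library. Its fragments gave 1.41 as the ratio of lncGM1082 KO to WT (95% interval 1.29 to 1.55), and that of lnc57Rik KO to WT was 0.998 (0.905 to 1.10). The exact Clopper-Pearson intervals here and below hold counting error only and leave out the spread between mice. The miR-223 host (NONMMUG045422.3), which encodes a microRNA abundant in granulocytes, had 2.59 FPKM in the lnc57Rik KO, 3.37 in the lncGM1082 KO and 4.57 in the WT library. Both knockout libraries were below WT, by 0.63 and 0.35 on the log2 scale. The host of miR-23a, miR-27a and miR-24 (NONMMUG095569.1) was likewise below WT in both, at 3.31, 2.99 and 4.54 FPKM in that order.

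The miR-221 and miR-222 row (NONMMUG096518.1) had 8.30 FPKM in the lnc57Rik KO, 10.7 in the lncGM1082 KO and 10.5 in the WT library. The row of the miR-17 to miR-92 cluster (NONMMUG013779.3), which is linked to proliferation, had 4.32, 4.48 and 4.16 FPKM, and the let-7 row (NONMMUG010915.3) 2.96, 2.59 and 2.42 FPKM. In these 3 rows the log2 folds against WT stayed between -0.31 and 0.21. Of the 15 host rows, 1 passed a log2 fold of 1 against WT. It was higher in the lncGM1082 KO, where 1.88% of all 1918 intergenic rows with a mean of 1 FPKM were. The row of miR-192 and miR-194 (NONMMUG091796.1, chromosome 19, 6262652 to 6269774, plus strand) had 0.503 FPKM in the lnc57Rik KO, 2.21 in the lncGM1082 KO and 0.501 in the WT library. These values rest on 63, 288 and 66 fragments, and the ratio of lncGM1082 KO to WT was 4.41 (95% interval 3.37 to 5.86). The row starts 317 bases past the end of Atg2a on the same strand, a gene of autophagosome formation, which had 11.1, 30.1 and 12.4 FPKM in the same order. The gene and the row were thus both high in the lncGM1082 KO library, and whether reads run on from one to the other was not tested.

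**Figure D1:**
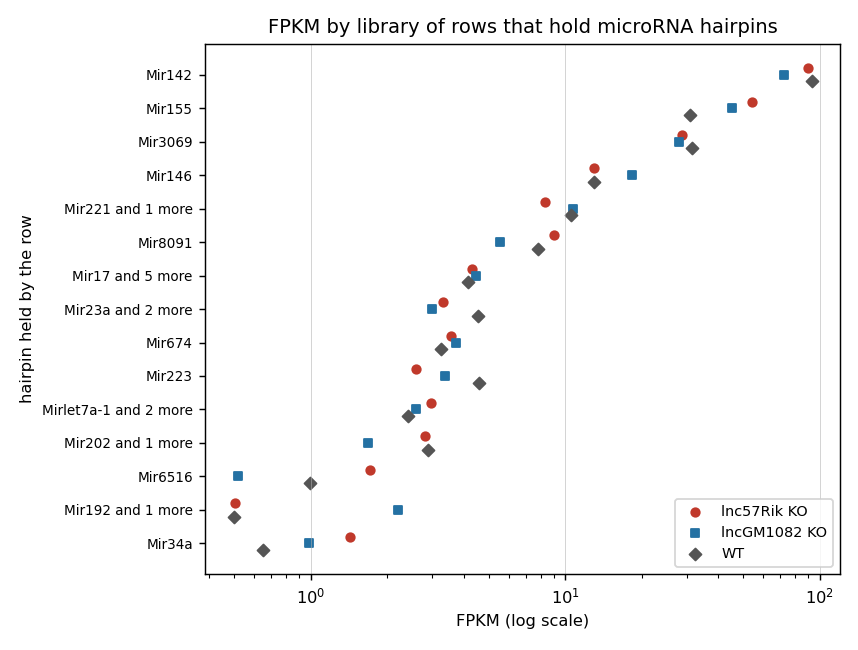
FPKM (log axis) of the 15 rows with a mean of at least 1 FPKM that hold microRNA hairpins, with 1 point per library (circles lnc57Rik KO, squares lncGM1082 KO, diamonds WT). The points of most rows lie close together, the miR-192 row stands apart in the lncGM1082 KO library (2.21 FPKM against 0.501 in WT), and the miR-155 row is lowest in WT (31.0 FPKM).

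Most intergenic rows were barely expressed. In all 3 libraries 8785 rows were above 0. A mean of at least 1 FPKM was reached by 1918 intergenic rows (10.5%), against 8243 of the NONCODE rows that overlap an Ensembl row (44.3%) and 12041 of the Ensembl rows (58.3%). At a mean of 5 FPKM 303 intergenic rows were left, and at 100 FPKM 9 were left. Levels of single rows are compared here per length, on the FPKM scale.

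**Figure D2:**
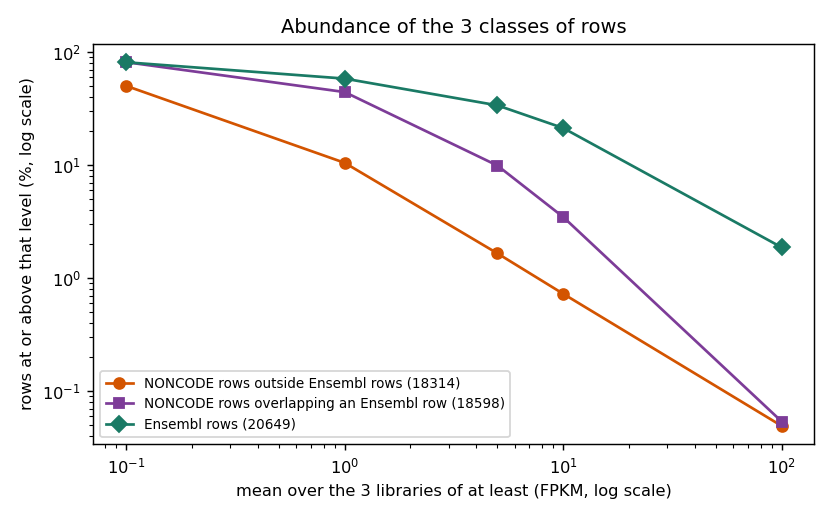
Percent of rows (log axis) whose mean over the 3 libraries reaches 0.1, 1, 5, 10 or 100 FPKM (log axis), for intergenic NONCODE rows, NONCODE rows overlapping an Ensembl row, and Ensembl rows. The intergenic rows lie lowest at every level, with 10.5% at 1 FPKM against 58.3% of the Ensembl rows.

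The intergenic rows took 5.72% of summed FPKM in the lnc57Rik KO, 5.24% in the lncGM1082 KO and 5.15% in the WT library. A few rows set these shares. The row over the mitochondrial 12S ribosomal RNA (NONMMUG044353.2) had 6822 FPKM in the lnc57Rik KO, 4697 in the lncGM1082 KO and 5279 in the WT library. Without the rows on the mitochondrial genome and the nuclear rows over a ribosomal RNA gene, the shares were 3.49%, 3.73% and 3.49%. The row over the nuclear ribosomal RNA repeat on chromosome 17 (NONMMUG018330.3) had 388, 169 and 161 FPKM, a log2 fold of 1.26 for lnc57Rik KO against WT. The part of differing ribosomal RNA content in the other differences was not tested, and reads of repeated loci could be placed in several rows.

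Among the other abundant rows, Malat1 (NONMMUG020671.2), a nuclear RNA of splicing speckles, had 351 FPKM in the lnc57Rik KO, 415 in the lncGM1082 KO and 412 in the WT library. A row over Scarna2 (NONMMUG027654.2), a guide RNA of the Cajal body, had 363, 350 and 338 FPKM, and the ratio of lnc57Rik KO to WT was 1.07 (95% interval 1.02 to 1.13). These rows differed little between the libraries. Another 3 of the most abundant rows were lowest in WT. NONMMUG007141.2, 4082 bases upstream of the helicase gene Dhx40, had 407, 504 and 343 FPKM in the order lnc57Rik KO, lncGM1082 KO, WT. NONMMUG020586.2, 2993 bases upstream of Gstp3, had 102, 128 and 71.0 FPKM. NONMMUG018197.2, 5576 bases downstream of the class I histocompatibility gene H2-Q10, had 150, 157 and 56.2 FPKM. Its log2 folds of 1.40 and 1.46 against WT passed 1 in both knockout libraries, while H2-Q10 itself had 4.43, 5.60 and 4.69 FPKM. The row lies among near-identical class I genes, so its reads may belong to several of them. In contrast, NONMMUG047617.1 on chromosome 1, which overlaps the RefSeq gene Gm39701, had 143 FPKM in the lnc57Rik KO, 261 in the lncGM1082 KO and 326 in the WT library, a log2 fold of -1.18 for lnc57Rik KO against WT. The remaining named rows of high abundance, NONMMUG023476.3 beside Hnrnpa3 and NONMMUG035615.2 over Rpl34-ps1, lay between 194.8 and 221 FPKM and between 83.1 and 93.0 FPKM.

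Expression of the intergenic rows depended on where they lay beside a gene. Of rows under 1 kb from the nearest Ensembl row 18.8% reached 1 FPKM. The share was 17.96% at 1 to 5 kb, 8.0% at 5 to 20 kb, 6.15% at 20 to 100 kb and 5.52% beyond 100 kb. Under 1 kb, rows downstream on the gene's own strand reached 1 FPKM in 29.4% of 462 cases and rows at its 3′ side on the other strand in 28.3% of 343. Rows at the 5′ side on the other strand, the place of divergent promoter transcripts, did so in 13.8% of 1365 cases, and rows upstream on the same strand in 14.1% of 291. The 3′ side of genes thus held about the same share on both strands and a larger share than the 5′ side. Beyond 5 kb the 4 positions lay between 4.17% and 8.73%. The shares also differed by the level of the neighbour. Under 1 kb, 57.1% of 77 rows reached 1 FPKM beside a gene of at least 100 FPKM, and 5.33% of 544 rows beside a gene under 1 FPKM. Beyond 100 kb they were 41.4% of 29 rows and 3.49% of 602 rows. The median level of the neighbour under 1 kb was lower at the 3′ side, at 3.46 FPKM on the same strand and 3.72 on the other, than at the 5′ side, at 5.29 and 7.66 FPKM.

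**Figure D3:**
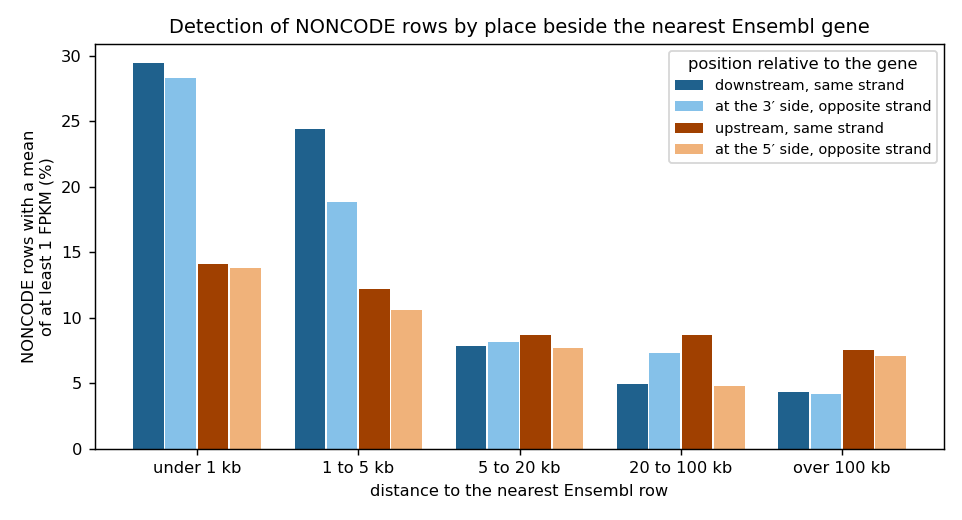
Percent of intergenic NONCODE rows with a mean of at least 1 FPKM, by distance to the nearest Ensembl row and by position relative to it (1 bar per position). The 2 positions at the 3′ side of the gene stand highest under 1 kb (29.4% and 28.3%), and the 4 positions lie close together beyond 5 kb.

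Change was measured on the log2(FPKM + 1) scale, which understates the change of low rows, among rows with a mean of at least 1 FPKM. A row was called higher or lower when this fold reached 1 in size. In the lnc57Rik KO library against WT, 69 of the 1918 intergenic rows were called higher, where 3.39% of all 22202 rows of the table and 3.79% of Ensembl rows were. Another 74 were called lower, where 1.53% of all rows and 1.4% of Ensembl rows were. The share of intergenic rows called higher, 3.6%, was near that background, and the share called lower, 3.86%, was above it. With no minimum level both shares were below those of Ensembl rows, at 0.639% higher and 0.546% lower, against 2.73% and 0.959% of Ensembl rows. Rows far below 1 FPKM can hardly reach this fold, and 10.5% of intergenic rows had a mean of 1 FPKM, against 58.3% of Ensembl rows. With no minimum the shares thus depend on the levels of both kinds of row. A minimum mean of 5 FPKM gave 4.62% and 5.94%, against 2.87% and 1.1%. A pseudocount of 0.1 gave 7.25% and 9.23%, against 6.11% and 2.41%. A pseudocount of 5 gave 0.626% and 0.417%, against 1.18% and 0.274%. The median fold of the intergenic rows was -0.06, beside 0.07 over all rows and 0.10 over Ensembl rows. Scaling the libraries by the median ratio of Ensembl rows moved the Ensembl median by about 0.10 to 0.00. Then 51 intergenic rows (2.66%) were called higher and 112 (5.84%) lower. Of Ensembl rows 372 were then called higher and 221 lower, beside 456 and 168 of 12041 without scaling. Many calls rest on low values: in 44 of the 69 and in 41 of the 74 the lower library was under 1 FPKM. The 69 lay at 59 places more than 50 kb apart and the 74 at 61 places.

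Among rows with a mean of at least 5 FPKM, the largest positive fold of the lnc57Rik KO lay beside a B cell gene. The rest of the 8 largest had other neighbours. NONMMUG010099.2 on chromosome 12 (113423142 to 113426090) begins 412 bases upstream of Ighm, the constant gene of the immunoglobulin mu heavy chain, on the other strand. It overlaps the RefSeq locus Igh, and as the use of strand in counting is unknown, its reads may belong to that locus. It had 25.6 FPKM in the lnc57Rik KO, 1.35 in the lncGM1082 KO and 1.0 in the WT library, and Ighm had 140.7, 7.31 and 6.97 FPKM in the same order. The log2 folds of row and gene against WT were 3.73 and 4.15 in the lnc57Rik KO. NONMMUG007519.2 on chromosome 11, 320 bases downstream of Ikzf3, a transcription factor of the B lineage, had 8.37, 1.0 and 0.473 FPKM. Its mean of 3.28 FPKM is below 5, and it was named through a list of neighbour genes. Ikzf3 had 5.52, 0.937 and 0.340 FPKM. These were the 2 intergenic rows with a mean of at least 1 FPKM whose nearest gene, within 50 kb, was on a list of B lineage genes, and both were high in the lnc57Rik KO library alone. Of the 25 genes of that list with a mean of at least 1 FPKM, 20 were called higher in the lnc57Rik KO and 0 lower. Among Ensembl rows 3.79% and 1.4% were. The mean runs over all 3 libraries, so a gene or row can pass it through the lnc57Rik KO library alone. In the lnc57Rik KO 27 list genes reached 1 FPKM, in the lncGM1082 KO 18 and in WT 14. The counts of calls are thus partly set by the minimum. The list summed to 1426 FPKM in the lnc57Rik KO, 615 in the lncGM1082 KO and 710.3 in the WT library. Of 31 list genes in the table, 0 were at 0 in the lnc57Rik KO, 3 in the lncGM1082 KO and 2 in the WT library. In bulk RNA more B lineage cells and more RNA per cell cannot be told apart, and their part in these rows was not tested.

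Beside interferon genes the picture was smaller in size. NONMMUG088906.1, 236 bases from the start of Irf1 on the other strand, had 2.86 FPKM in the lnc57Rik KO, 0.636 in the lncGM1082 KO and 0.629 in the WT library, from 13, 3 and 3 fragments. Irf1, an interferon-induced transcription factor, had 77.1, 22.9 and 17.3 FPKM. The ratio of the row between lnc57Rik KO and WT was 4.55, with a wide interval of 1.25 to 24.9. Of 5 rows near genes of the interferon response, 1 was called higher in the lnc57Rik KO, where 9 of the 24 genes themselves were. Over all intergenic rows the share was 3.6%, and over Ensembl rows 3.79%. NONMMUG031634.3, 2445 bases from the ubiquitin-like gene Isg15, had 2.32, 2.29 and 0.949 FPKM and stayed below a fold of 1.

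Further rows high in the lnc57Rik KO lay beside genes outside the lists. NONMMUG090844.1, 2405 bases past the Ensembl end of the sorting nexin gene Snx29 and inside its RefSeq span, had 20.4 FPKM in the lnc57Rik KO, 6.97 in the lncGM1082 KO and 3.66 in the WT library, with a ratio of lnc57Rik KO to WT of 5.56 (95% interval 3.29 to 9.97). Snx29 had 14.5, 4.74 and 3.96 FPKM, so row and gene were ordered alike. NONMMUG020801.2, 147 bases past the end of the fatty acid desaturase gene Fads2, had 38.4, 15.3 and 16.1 FPKM, and Fads2 had 37.7, 17.3 and 17.2 FPKM. GENCODE places that row inside Fads2, so row and gene may be one transcript. Other high rows had a neighbour that did not move. NONMMUG077253.1, 2296 bases upstream of Atf7ip, had 12.04, 3.71 and 1.38 FPKM, while Atf7ip had 7.70, 9.41 and 8.08 FPKM. NONMMUG026007.2, a span of chromosome 3 from 5860338 to 6049710 with a GENCODE long noncoding gene on the other strand, had 119 FPKM in the lnc57Rik KO, 79.5 in the lncGM1082 KO and 29.6 in the WT library. It was called higher in both knockout libraries, with log2 folds of 1.97 and 1.39. NONMMUG095718.1 on chromosome 8 (14.0, 7.20 and 4.48 FPKM) and NONMMUG032885.2 over Hmgn2-ps1 on chromosome 5 (19.15, 9.41 and 6.59 FPKM) were the rest of the 8 largest, with the row inside Gm1966 given below. Both were highest in the lnc57Rik KO and lowest in WT.

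Rows low in the lnc57Rik KO included several beside genes of neutrophils. Of 6 rows near genes on a neutrophil list 3 were called lower, and 10 of the 26 genes of that list were. Over all intergenic rows the share was 3.86%, and over Ensembl rows 1.4%. NONMMUG052384.1, 10435 bases upstream of the carbonic anhydrase gene Car4, had 3.79 FPKM in the lnc57Rik KO, 6.28 in the lncGM1082 KO and 12.8 in the WT library. NONMMUG053296.1 on the other strand of the same stretch had 0.689, 2.39 and 3.93 FPKM. Car4 had 146, 247 and 511 FPKM, so that the rows and the gene were highest in WT. NONMMUG073570.1, 1986 bases from the 5′ side of Csf3r, the G-CSF receptor gene, had 0.862, 4.36 and 3.69 FPKM, and Csf3r had 63.5, 119 and 130 FPKM. Here the lncGM1082 KO lay near WT. The neutrophil list summed to 13078 FPKM in the lnc57Rik KO, 9933 in the lncGM1082 KO and 14875 in the WT library, and the part of the neutrophil share in these rows was not tested.

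Near monocyte genes both of 2 rows were called lower in the lnc57Rik KO, while of the 18 genes of that list with a mean of at least 1 FPKM 3 were called higher and 4 lower. Over all intergenic rows 3.6% were called higher and 3.86% lower, and over Ensembl rows 3.79% and 1.4%. The same shares apply to the other lists of this paragraph, where a count of 1 row is too small to set against them. NONMMUG060058.1 beside Ly6c1 had 0.315 FPKM in the lnc57Rik KO, 1.21 in the lncGM1082 KO and 2.10 in the WT library, from 4, 16 and 28 fragments. NONMMUG019695.2 beside Cd14, the lipopolysaccharide coreceptor, had 1.60, 2.38 and 5.13 FPKM, while Cd14 itself had 679, 1108 and 899 FPKM. Of 14 rows near inflammatory genes 1 was called lower, while of the 29 genes of that list 4 were called higher and 3 lower. It was NONMMUG052745.1 beside Socs3, a feedback inhibitor of cytokine receptors, with 0.621, 1.19 and 2.48 FPKM. A second row beside Socs3, NONMMUG089072.1, had 0.674, 1.51 and 1.68 FPKM, and Socs3 had 259.7, 417 and 441 FPKM. NONMMUG022231.2 upstream of Il1rn, the interleukin-1 receptor antagonist gene, had 1.37, 1.31 and 3.25 FPKM and did not reach a fold of 1. Of 12 rows near myeloid transcription factor genes 0 were called in either comparison with WT. NONMMUG091673.1, 39 bases from the start of the immediate early gene Egr1, had 1.11, 2.03 and 2.66 FPKM, and Egr1 had 101.5, 106 and 172 FPKM. NONMMUG089211.1 past the end of Hif1a, the hypoxia factor gene, had 1.47, 2.24 and 3.39 FPKM, and NONMMUG061372.1 beside Bcl6, a transcriptional repressor gene, had 1.85, 0.509 and 1.51 FPKM. The 1 row near a dendritic cell gene, NONMMUG047831.1 beside Batf3, had 1.68, 2.28 and 3.10 FPKM, against 11.1, 5.82 and 7.05 FPKM of Batf3, so that row and gene moved apart. The 1 row near a megakaryocyte gene, NONMMUG075764.1 over Cxcl5 beside Ppbp, had 1.5, 2.44 and 1.31 FPKM. Of 5 rows near MDSC marker genes, a list that shares Csf3r and the Ly6 genes with those above, 2 were called lower. No row with a mean of 1 FPKM lay near the listed genes of eosinophils, basophils and mast cells, of T and NK cells, or of stem and progenitor cells.

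Other large negative folds of the lnc57Rik KO lay on chromosomes 8, 15, 19 and X. NONMMUG065921.2 on chromosome 19, over the RefSeq noncoding gene Gm36774, had 1.31 FPKM in the lnc57Rik KO, 5.86 in the lncGM1082 KO and 8.28 in the WT library. NONMMUG080541.1 on chromosome 8, over the RefSeq noncoding gene Gm40464 and 5598 bases from the defensin gene Defb40, had 2.59, 6.70 and 11.9 FPKM, against 2.05, 6.33 and 2.50 FPKM of Defb40. It rests on 51, 137 and 246 fragments, with a ratio of 0.218 for lnc57Rik KO to WT (95% interval 0.158 to 0.296). NONMMUG045800.2 on the X chromosome, over the GENCODE pseudogene Gm14983 and 134857 bases from Diaph2, had 1.47, 6.48 and 7.36 FPKM. All 3 rows were lowest in the lnc57Rik KO and highest in WT. On chromosome 15, NONMMUG090727.1 had 14.4 FPKM in the lnc57Rik KO, 34.9 in the lncGM1082 KO and 43.05 in the WT library and lies 292 bases past the end of Grina, a regulator of cell death, on the other strand. Grina had 313, 462 and 462.1 FPKM. NONMMUG090728.1 lies within the same span and had 8.18, 17.2 and 25.3 FPKM, so the rows may share reads, which was not tested. The nearest Ensembl row of NONMMUG090728.1, AC110211.1, 2022 bases away on the same strand, had 34.5, 81.3 and 85.7 FPKM. AC110211.1 was called lower too, with a log2 fold of -1.29 for lnc57Rik KO against WT.

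Most places with called rows held 1 row alone. In the lnc57Rik KO against WT these were 53 of the 59 places of rows called higher. Among the 61 places of rows called lower they were 55. A few loci held several called rows. The densest lay on chromosome 3 between 149168944 and 149198792 on the minus strand, where all 8 rows with a mean of at least 1 FPKM were called lower in the lnc57Rik KO. They summed to 5.57 FPKM in the lnc57Rik KO, 34.7 in the lncGM1082 KO and 42.2 in the WT library. Their log2 folds against WT ran between -2.52 and -1.43 in the lnc57Rik KO, and NONMMUG071724.1, the largest, had 1.23, 10.1 and 11.8 FPKM. NONMMUG071725.1 had 1.77, 7.78 and 8.96 FPKM from 28, 128 and 149 fragments, and its ratio of lnc57Rik KO to WT was 0.197 (95% interval 0.127 to 0.297). The nearest Ensembl row, Gm42647 on the other strand, had 0.124, 3.69 and 4.60 FPKM. RefSeq places the noncoding genes Gm52619 and Gm30382 over these rows, so the 8 rows may be pieces of the same transcripts and are not independent.

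At Gm1966 on chromosome 7, 4 rows between 106617179 and 106644626 overlapped the RefSeq gene upstream of its shorter Ensembl row, and 3 were called higher in the lnc57Rik KO. The row with the highest level, NONMMUG038970.2, had 13.4 FPKM in the lnc57Rik KO, 3.82 in the lncGM1082 KO and 4.08 in the WT library, and the Ensembl row Gm1966 had 42.8, 12.1 and 14.9 FPKM. The 4 rows and the gene were thus high in the lnc57Rik KO library alone. Another 4 called rows lay on chromosome 2 downstream of Mir133a-2, between 180409092 and 180427606, summing to 8.96, 3.58 and 1.31 FPKM, and 3 lay on chromosome 7 between 75761374 and 75764235, summing to 6.97, 2.65 and 1.31 FPKM. On chromosome 10 between 67693946 and 67705565, over the RefSeq noncoding gene Gm32438, 3 of 5 rows were called lower in the lnc57Rik KO. The 3 summed to 14.4 FPKM in the lnc57Rik KO, 22.3 in the lncGM1082 KO and 36.5 in the WT library.

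**Figure D4:**
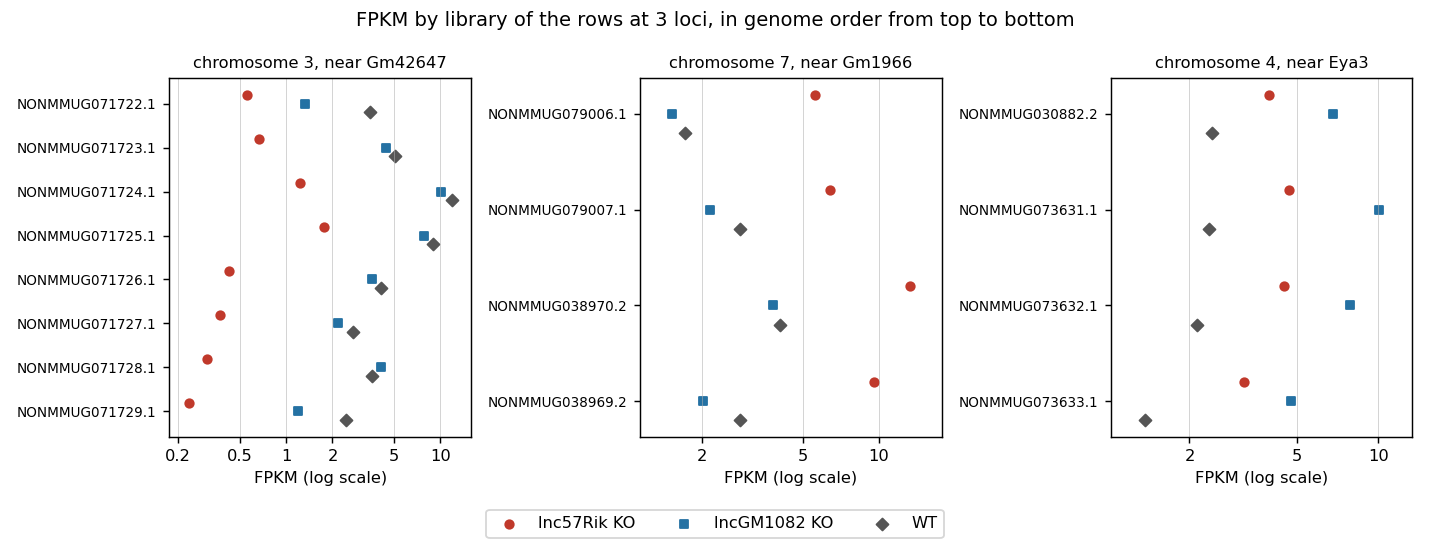
FPKM (log axes) of every intergenic row with a mean of at least 1 FPKM at 3 loci, with 1 point per library (circles lnc57Rik KO, squares lncGM1082 KO, diamonds WT) and rows in genome order. On chromosome 3 the lnc57Rik KO lies below both other libraries in all 8 rows, on chromosome 7 above both in all 4 rows, and on chromosome 4 the lncGM1082 KO lies highest in all 4 rows.

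For 4 rows that averaged 5 FPKM or more and had a fold past 1 against WT, a RefSeq gene starts within 20 bases of the row's first base. The promoters of these genes are shown because the rows changed and their start is annotated. Each line holds 250 bases before to 50 after the start (RefSeq, GRCm38.p6), and capitals mark a match to 1 of the motifs searched.
4833427F10Rik: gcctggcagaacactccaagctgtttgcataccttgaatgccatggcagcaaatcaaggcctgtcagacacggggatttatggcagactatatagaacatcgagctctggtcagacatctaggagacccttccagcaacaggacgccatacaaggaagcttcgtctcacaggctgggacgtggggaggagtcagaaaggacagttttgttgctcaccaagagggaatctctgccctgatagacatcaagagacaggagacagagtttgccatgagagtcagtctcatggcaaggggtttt
Gm1966: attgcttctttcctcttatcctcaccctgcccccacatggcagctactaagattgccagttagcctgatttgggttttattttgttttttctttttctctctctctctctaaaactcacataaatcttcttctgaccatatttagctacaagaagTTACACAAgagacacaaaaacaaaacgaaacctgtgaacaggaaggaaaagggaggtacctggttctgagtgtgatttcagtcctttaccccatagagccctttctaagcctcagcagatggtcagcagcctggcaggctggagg
Gm2848: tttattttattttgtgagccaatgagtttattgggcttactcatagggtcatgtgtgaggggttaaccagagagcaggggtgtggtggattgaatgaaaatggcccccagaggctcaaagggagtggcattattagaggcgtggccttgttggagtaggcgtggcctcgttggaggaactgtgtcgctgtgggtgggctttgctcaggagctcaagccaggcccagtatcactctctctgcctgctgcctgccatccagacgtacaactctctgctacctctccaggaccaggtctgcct
Gm40244: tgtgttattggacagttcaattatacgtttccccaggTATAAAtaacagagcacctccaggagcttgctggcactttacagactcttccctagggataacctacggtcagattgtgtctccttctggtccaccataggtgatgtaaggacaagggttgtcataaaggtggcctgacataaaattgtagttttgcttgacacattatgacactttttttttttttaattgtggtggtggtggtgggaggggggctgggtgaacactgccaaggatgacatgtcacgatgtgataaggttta
They lie at chr17:35772200-35772499 (plus strand), chr7:106644596-106644895 (minus), chr13:52573176-52573475 (minus) and chr4:125218194-125218493 (plus). The motifs were a kappa B site (in 0.155% of 32851 RefSeq promoters of this length), TGANTCA (AP-1, 7.81%), GAGGAAGT (PU.1, 3.20%), TTNCNNAA (C/EBP, 40.7%) and TATAAA (13.6%), searched on both strands. The Gm1966 promoter held 1 match to TTNCNNAA, the Gm40244 promoter 1 match to TATAAA, and the other two held none of the 5. A match is a description of the letters and not a binding site. The row of 4833427F10Rik (NONMMUG018213.2) had 3.97 FPKM in the lnc57Rik KO, 11.6 in the lncGM1082 KO and 11 in the WT library, and that of Gm40244 (NONMMUG030604.2) had 3.70, 5.68 and 8.59 FPKM. That of Gm2848 (NONMMUG010999.2) was highest in the lnc57Rik KO, at 9.15, 5.52 and 3.91 FPKM.

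In the lncGM1082 KO library against WT fewer intergenic rows passed the fold. Of the 1918, 36 were called higher, where 0.865% of all rows and 0.88% of Ensembl rows were, and 34 were called lower, where 0.946% of all rows and 1.05% of Ensembl rows were. These are 1.88% and 1.77% of the intergenic rows, above the background in both directions. With no minimum level they were 0.333% and 0.322%, below the 0.683% and 0.76% of Ensembl rows. At a pseudocount of 5 they were 0.156% and 0.0521%, against 0.158% and 0.141%. Under both settings rows of low level can hardly reach the fold, and more of the intergenic rows are low. At a minimum mean of 5 FPKM the shares were 1.65% and 0.66%, against 0.673% and 0.459%. At a pseudocount of 0.1 they were 5.47% and 4.85%, against 1.82% and 1.86%. The median fold of the intergenic rows was within 0.01 of 0, as was that over Ensembl rows. In 24 of the 36 and in 23 of the 34 the lower library was under 1 FPKM. The calls lay at 32 and 34 places.

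The rows called higher included the miR-192 row and 1 compact locus. On chromosome 4 between 132614614 and 132623967, all 4 rows were called higher in the lncGM1082 KO, summing to 16.3 FPKM in the lnc57Rik KO, 29.4 in the lncGM1082 KO and 8.28 in the WT library. NONMMUG073631.1 there had 4.69, 10.04 and 2.36 FPKM from 53, 118 and 28 fragments, a ratio of 4.26 for lncGM1082 KO to WT (95% interval 2.80 to 6.69). The nearest gene, the phosphatase and coactivator gene Eya3, had 12.5, 12.8 and 11.8 FPKM and did not move with them. Of 4 rows near heat shock and stress genes 1 was called higher and 1 lower in the lncGM1082 KO, where 1.88% and 1.77% of all intergenic rows were. NONMMUG083318.1, 2956 bases past the end of the constitutive chaperone gene Hspa8, had 0.653, 2.89 and 0.718 FPKM from 32, 147 and 37 fragments, a ratio of 4.02 (95% interval 2.79 to 5.93), against 438, 373 and 345 FPKM of Hspa8. The row was high in the lncGM1082 KO alone, while the gene was highest in the lnc57Rik KO. NONMMUG032571.2 on chromosome 5, over the RefSeq pseudogene Gm21011, had 7.01, 9.70 and 2.85 FPKM and was called higher in both knockout libraries. NONMMUG056949.1 and NONMMUG010980.2, on the same strand of chromosome 13 near Cks2, had 27.9, 35.6 and 16.3 FPKM and 28.3, 37.5 and 19.3 FPKM, and the first of them passed a fold of 1 in the lncGM1082 KO. Both were lowest in WT, as was NONMMUG019375.2 inside the GENCODE span of Impact with 6.67, 8.91 and 4.23 FPKM.

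Near neutrophil genes 1 of 6 rows was called lower in the lncGM1082 KO, where 4 of the 26 genes were. Over all intergenic rows the share was 1.77%, and over Ensembl rows 1.05%. NONMMUG001198.2, 469 bases from the start of the interferon-induced gene Sp110, had 14.1 FPKM in the lnc57Rik KO, 1.67 in the lncGM1082 KO and 4.81 in the WT library. It was therefore called higher in the lnc57Rik KO and lower in the lncGM1082 KO, with log2 folds of 1.38 and -1.13, while Sp110 had 14.9, 8.06 and 7.76 FPKM. The row overlaps the RefSeq span of Sp140, in a stretch with near-identical copies, so its reads are uncertain. NONMMUG096618.1 on the Y chromosome had 6.57, 1.24 and 9.11 FPKM from 46, 9 and 67 fragments, a ratio of 0.136 for lncGM1082 KO to WT (95% interval 0.0595 to 0.274). Its nearest Ensembl row, Mid1-ps1, 12572 bases away, had 2.32, 0.570 and 1.47 FPKM. How reads that map more than once were placed is unknown, and the part of the sex of the mice was not tested. NONMMUG005202.2, 14960 bases upstream of Xbp1, a factor of the endoplasmic reticulum stress response, had 2.16, 1.97 and 5.52 FPKM, against 85.1, 83.3 and 96.5 FPKM of Xbp1. It was called lower in both knockout libraries, whereas NONMMUG051715.1 just beside it had 1.08, 0.776 and 1.47 FPKM and was called in neither. The other named rows of this direction had log2 folds between -0.92 and -0.74 and were not called. They were NONMMUG052384.1 and NONMMUG080541.1, given above, NONMMUG003873.2, NONMMUG092089.1 past the Ensembl end of Ptgs1 and inside its RefSeq span, NONMMUG095567.1 past Gm37352 and NONMMUG030605.2 over the RefSeq noncoding gene Gm32611. NONMMUG092089.1 had 5.05, 3.58 and 7.62 FPKM, NONMMUG095567.1 23.1, 17.7 and 32.4 FPKM, NONMMUG030605.2 6.09, 6.75 and 12.1 FPKM, and NONMMUG003873.2, in the chromosome 10 locus, 7.48, 9.54 and 18.7 FPKM.

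Set side by side, the changes of intergenic rows and of their nearest genes ran in the same direction more often than not. In 1654 pairs both row and gene had a mean of at least 1 FPKM. Across these pairs the log2 folds of lnc57Rik KO against WT had a Pearson r of 0.50 and a Spearman rho of 0.41, and 62.1% had the same sign. For lncGM1082 KO against WT r was 0.24, rho 0.25 and the share of the same sign 58.8%. Between 7836 pairs of neighbouring Ensembl rows the values were 0.31, 0.22 and 60.8% for the lnc57Rik KO and 0.10, 0.14 and 55.2% for the lncGM1082 KO. Rows of a pair share the library and, where they touch, may share reads. Some pairs may be 1 gene split between annotations, as at Gm1966, Snx29 and Fads2. Pairs are not replicates, and the 2 comparisons share the WT library. The value did not fall steadily with distance: for the lnc57Rik KO, r was 0.62 under 1 kb, 0.40 at 1 to 5 kb, 0.44 at 5 to 20 kb, 0.62 at 20 to 100 kb, where 7 of the 8 rows of the chromosome 3 locus lie, and 0.21 over 58 pairs beyond 100 kb.

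**Figure D5:**
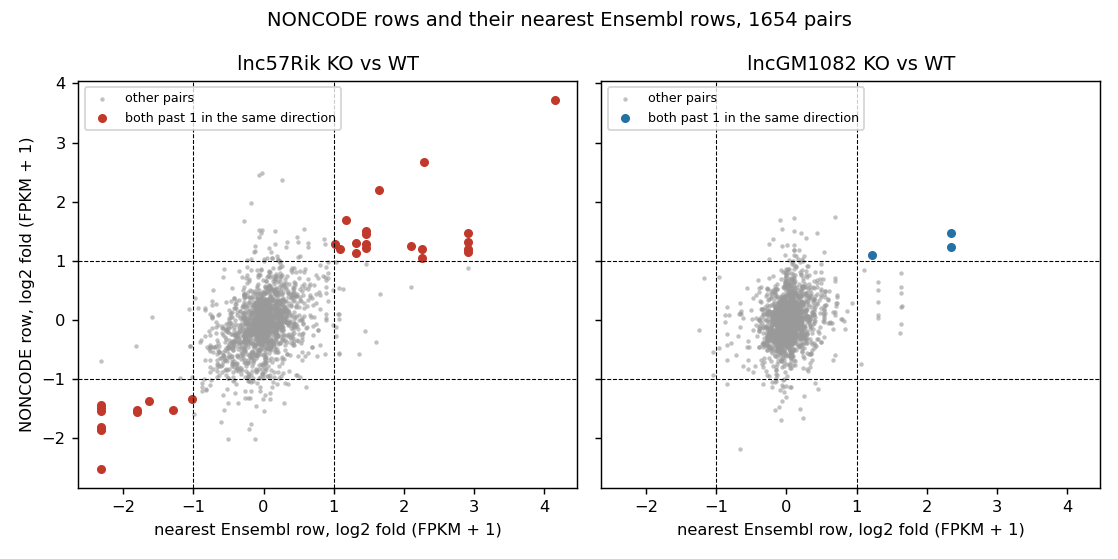
Log2 fold of each intergenic row against that of its nearest Ensembl row (log2 of FPKM + 1), for lnc57Rik KO against WT on the left and lncGM1082 KO against WT on the right, over the 1654 pairs in which both have a mean of at least 1 FPKM. Dashed lines mark folds of 1, and coloured points are pairs past them in the same direction, 32 on the left and 3 on the right.

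Among rows called higher in the lnc57Rik KO, 58 had a neighbour with at least 1 FPKM, and for 19 of them (32.8%) that neighbour was called higher too, where 2.18% of the neighbours of all pairs were. Between neighbouring Ensembl rows the share was 28.6% (74 of 259). The 19 share 12 neighbours. The rows at Snx29, Gm1966 and Fads2 lie inside a RefSeq or GENCODE span of their neighbour, so these pairs may be 1 gene each. The shares of 32.8% and 28.6% are therefore not fully alike in kind. Beside Ighm, Ikzf3, Irf1, Snx29, Fads2 and Gm1966, these were Ralgps2, Irgm2, Atm, Gm42047, Gm23251 and Mir133a-2. Of rows called lower, 60 had such a neighbour, and 13 neighbours (21.7%) were called lower, where 1.27% of all neighbours were and 2.80% (3 of 107) between Ensembl rows. They share 5 neighbours, and 8 of the 13 rows are those of the chromosome 3 locus beside Gm42647. Of rows called higher in the lncGM1082 KO, 3 of 29 had a neighbour called higher (10.3%, where 1.03% of all neighbours were, and 9.33% between Ensembl rows), namely Atg2a and, for 2 rows, Gm42047. Of the 25 called lower 0 did. In no pair were row and neighbour called in opposite directions in either comparison with WT. For most called rows the nearest gene did not pass the fold.

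Between the knockouts, 62 intergenic rows were called higher in the lncGM1082 KO than in the lnc57Rik KO, where 1.31% of all rows and 1.17% of Ensembl rows were, and 48 were called lower, where 3.07% of all rows and 3.36% of Ensembl rows were. These are 3.23% and 2.5% of the intergenic rows, so that the share called higher was above the background and the share called lower below it. Neither order held under every setting. The share called higher was below that of Ensembl rows with no minimum level, at 0.502% against 0.862%, and at a pseudocount of 5, at 0.156% against 0.249%. Under both of these settings rows of low level can hardly reach the fold, and more of the intergenic rows are low. At a minimum mean of 5 FPKM it was 4.95% against 0.96%, and at a pseudocount of 0.1 it was 9.07% against 2.26%. The share called lower was above it at a minimum mean of 5 FPKM, at 3.3% against 2.44%, and at a pseudocount of 0.1, at 6.78% against 5.43%. The median fold was 0.05, beside -0.10 over Ensembl rows. With median ratio scaling 81 were called higher and 40 lower, 4.23% and 2.09% of the intergenic rows, beside 188 and 328 Ensembl rows. The largest differences repeat the rows above, with log2 folds of 2.31 for NONMMUG071724.1 at the chromosome 3 locus and -3.50 for NONMMUG010099.2 beside Ighm. NONMMUG022879.2, a row of chromosome 2 over the RefSeq gene Vis1 and 121810 bases from the 5′ side of Zeb2, a transcription factor gene, had 10.3 FPKM in the lncGM1082 KO and 2.46 in the lnc57Rik KO, with 5.48 in WT, a log2 fold of 1.71. Against WT it passed a fold of 1 in neither knockout. Calls numbered 143 in the lnc57Rik KO, 70 in the lncGM1082 KO and 110 between the knockouts, and fragments were recovered for 70, 31 and 55. The 95% interval of the ratio excluded 1 in 68, 30 and 53 of these, for counting error only. The rows were chosen by a large fold in the same values, so intervals that exclude 1 follow largely from that choice. They are no check of the calls.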

How the data were processed

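The deposited table gives FPKM values per gene, computed by the authors, for 1 library of each genotype. The submitters' processing notes name Bowtie 0.12.2 and mm9 without a role, but 19580 of 20634 matched Ensembl rows lie at the identical position in GENCODE M21, so coordinates are given as GRCm38. The counting tool, its use of strand and its treatment of reads that map more than once could not be learned from the labels or headers.

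Rows were selected by position overlap on either strand, and each was paired with its nearest Ensembl row. Folds are log2 ratios of FPKM + 1 among rows with a mean of at least 1 FPKM, called at a size of 1. Fragments were recovered with the fitted totals where the span of a row gave whole numbers within 0.05 in every library. This held for 12501 of the rows, and the 95% intervals rest on these fragments. Named rows are the 10 most abundant, the 8 largest folds each way against WT (4 between the knockouts) at a mean of 5 FPKM, and up to 3 rows per list of neighbour genes within 50 kb. The microRNA rows, the loci, the promoters and the pairs called together were chosen after their values were seen. The rows and lists were chosen with earlier results of these data known. The calculation was tested on simulated data. Python 3.11.15, numpy 2.4.6, pandas 2.3.3, scipy 1.17.1 and matplotlib 3.10.9 were used. Sequences come from RefSeq (GRCm38.p6). The values of some neighbouring or marker genes are not reported here.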

Additional observations from a re-analysis of the deposited data

How the results depend on the processing

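With 1 library per genotype the calls depend on the settings, and the counts are given as higher and lower for lnc57Rik KO against WT, lncGM1082 KO against WT and lncGM1082 KO against lnc57Rik KO, beside 69 and 74, 36 and 34, and 62 and 48 as reported. A pseudocount of 0.1 gave 139 and 177, 105 and 93, and 174 and 130. As shares of the intergenic rows these were 7.25% and 9.23%, 5.47% and 4.85%, and 9.07% and 6.78%. Ensembl rows had 6.11% and 2.41%, 1.82% and 1.86%, and 2.26% and 5.43%. A pseudocount of 5 gave 12 and 8, 3 and 1, and 3 and 11. With no minimum level they were 117 and 100, 61 and 59, and 92 and 80. Beside these counts Ensembl rows gave 1.18% and 0.274% for lnc57Rik KO against WT at a pseudocount of 5, where the intergenic rows had 0.626% and 0.417%. With no minimum Ensembl rows gave 2.73% and 0.959%, where the intergenic rows had 0.639% and 0.546%. Under both settings rows of low level can hardly reach the fold, and more of the intergenic rows are low. A minimum mean of 5 FPKM gave 14 and 18, 5 and 2, and 15 and 10, with medians of -0.16 for lnc57Rik KO against WT and 0.21 between the knockouts. The shares were 4.62% and 5.94%, 1.65% and 0.66%, and 4.95% and 3.3%. Ensembl rows had 2.87% and 1.1%, 0.673% and 0.459%, and 0.96% and 2.44%. Median ratio scaling gave 51 and 112, 37 and 36, and 81 and 40. Of Ensembl rows it called 372 and 221, 106 and 131, and 188 and 328. Without scaling these were 456 and 168, 106 and 126, and 141 and 404. Rows at least 5 kb from an Ensembl row gave 31 and 50, 18 and 12, and 42 and 21. These were 3.4% and 5.48%, 1.97% and 1.31%, and 4.6% and 2.3% of such rows, where the Ensembl shares stay as first reported. Pairs with row and neighbour called alike, 32 and 3 as reported in the lnc57Rik KO and the lncGM1082 KO, were 46 and 7 at a pseudocount of 0.1, 5 and 0 at 5, 49 and 4 with no minimum, 6 and 0 at a mean of 5 FPKM, and 19 and 0 beyond 5 kb. The share of summed FPKM was 1.92%, 2.07% and 1.92% in the lnc57Rik KO, lncGM1082 KO and WT libraries beyond 5 kb, and 3.49%, 3.73% and 3.49% without mitochondrial and ribosomal RNA rows, an alternative chosen after seeing the data. Counting overlapping rows once, and leaving out rows over a protein-coding gene, pseudogene or ribosomal RNA gene of GENCODE, also chosen after seeing the data, kept every count within 1.5 times. The cause of these shifts was not tested. Under median ratio scaling 4 named folds of 3 rows changed sign, all under 1 in size and 0 of them called. For NONMMUG027654.2 over Scarna2 the fold of lnc57Rik KO against WT became -0.02. No called named fold changed sign under the settings run on single rows (pseudocount, minimum level and scaling). At a pseudocount of 5, 11 of 29 named calls in the lnc57Rik KO and 5 of 9 in the lncGM1082 KO fell short of 1. No paired analysis was possible because there is 1 library per genotype.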
